A study of Mus musculus with 6 samples.

Results

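The gene-level expression table of this RNA sequencing study held 41945 rows, of which 4684 carried no gene name. The loci described here are the 793 unnamed rows that spanned at least 1 kb and reached at least 1 FPKM (fragments per kilobase of transcript, scaled to the number of mapped fragments) in at least 1 genotype. They were chosen on their length and on the higher of their FPKM values, so their levels are a description and were not tested. A further 66 unnamed loci of 1 kb or longer stayed under 1 FPKM, and 3733 unnamed loci at 1 FPKM or more were shorter than 1 kb. A locus low in one genotype was kept only through the other genotype, and 326 of the 793 loci had at least 1 FPKM in both.

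Motor neurons (MNs) were derived from mouse embryonic stem cells (mESCs) of an Hb9 control line, labelled wildtype, and of the A2 SMA line, labelled SMN2+/+;mSmn-/-, which lacks mouse Smn. As the study describes the lines, both carry the human SMN2 gene. Both lines were on the FVB/N background and carried eGFP under the promoter of Hb9 (Mnx1), a homeobox gene of MNs. Embryoid bodies received 1 µM retinoic acid and 1 µM Smoothened agonist over 5 days, and living eGFP-positive cells were collected by FACS, with 3 samples per genotype. The table gives 1 pooled value per genotype, so no spread between samples is given and no test of a locus was computed from these values. The table's own test columns hold the authors' comparison and were not used. Because each genotype is 1 cell line, genotype and line cannot be told apart. Where values are given in pairs below, the first is for Hb9 control and the second for A2 SMA MNs.

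Transcript assembly from RNA sequencing reports any stretch of the genome where reads join into a transcript, whether or not an annotation names it. Unnamed loci can therefore hold long noncoding RNAs, primary transcripts from which microRNAs are cut, transcripts of enhancers and repeats, and unlisted ends, introns or antisense transcripts of known genes. Many long noncoding RNAs are made in few cell types, and pluripotent cells and neurons each have their own. The table gives no strand, so a locus beside a gene cannot be assigned to its sense or antisense strand.

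The genotypes differed in the genes that define the cells. Smn1, the targeted gene, had 137 FPKM in Hb9 control against 5.26 FPKM in A2 SMA MNs. Mnx1, whose promoter drives the reporter, was near equal at 41.2 and 44.2 FPKM, whereas the MN factors Isl1 (108 and 5.95 FPKM) and Lhx3 (27.6 and 0.348 FPKM) and the acetylcholine-synthesising enzyme Chat (15.5 and 0.344 FPKM) were lower in A2 SMA MNs. The pluripotency factors Pou5f1 (98.3 and 775 FPKM) and Nanog (41.4 and 236 FPKM) were higher in A2 SMA MNs. A bulk value cannot tell fewer cells of a type from less RNA per cell, and the part of cell composition in the values below was not tested.

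Some of the unnamed loci lay beside microRNA genes, and a view of these was added after their values were seen. Within 10 kb of 22 of the 656 microRNA rows of the table lay 33 of the 793 loci, 8 of them in the same interval as the microRNA row. Of the 33 loci, 18 were at least 2-fold lower in A2 SMA MNs, 2 were at least 2-fold higher, 12 lay between these limits and 1 was listed at 0 in A2 SMA MNs. Over all 765 unnamed loci with a ratio, 37% were at least 2-fold lower and 24.8% at least 2-fold higher. Of those overlapping any named row, under 1 kb from one or 1 to 10 kb away, 51%, 49.2% and 37.5% were at least 2-fold lower. At least 2-fold higher were 15.7%, 10.7% and 21.1% of them. The 33 loci held 25 distinct sets of coordinates, with 5 of them in 1 interval beside Mex3a and Mir1905. Of the microRNA rows themselves, 12 of the 22 were listed at 0 FPKM in both genotypes. RefSeq (GRCm38.p6) gave a mature sequence for 20 of the 22 microRNA symbols, and 7 of these beside loci described next, picked after the values were seen, are shown 5′ to 3′ with the seed, bases 2 to 8, which pairs with target RNAs, in capitals. The seeds shown all differ from each other.
miR-7a-5p: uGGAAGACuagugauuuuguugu
miR-9-5p: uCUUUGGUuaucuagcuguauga
miR-384-5p: uGUAAACAauuccuaggcaaugu
miR-218-5p: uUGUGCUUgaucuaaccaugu
miR-130a-3p: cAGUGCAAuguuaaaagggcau
miR-33-5p: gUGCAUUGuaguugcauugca
miR-204-5p: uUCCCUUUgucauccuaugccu

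Several loci beside microRNAs were low in A2 SMA MNs, and those described here were picked after their values were seen. Beside Mir7-2, which encodes miR-7a, a microRNA of neurons and endocrine cells, XLOC_032484 (chr7:86028003-86032426) had 5.66 FPKM in Hb9 control against 0.639 FPKM in A2 SMA MNs. A second locus in the same interval, XLOC_035005, had 1.97 FPKM and was listed at 0. The Mir7-2 row, 725 bp away, had 3.67 and 0.108 FPKM, so all 3 rows were lower in A2 SMA MNs. XLOC_032494 (chr7:86681059-86704832) lay 1775 bp from Mir9-3, one of the genes of miR-9, which acts in neural progenitors and neurons, and had 2.31 FPKM in Hb9 control against 0.0495 FPKM in A2 SMA MNs. On the X chromosome, XLOC_041882 (chrX:102528730-102530444), 9176 bp from Mir384, had 1.67 and 0.0576 FPKM. Mir218-2, a gene of the MN-enriched miR-218, lies within Slit3, which encodes a secreted axon guidance ligand. The longest of the 793 loci, XLOC_005757 (chr11:34934565-35525526, 590962 bp), had the coordinates of Slit3 and 2.32 and 0.674 FPKM, beside 52.6 and 7.21 FPKM for Slit3 itself. The Mir9-3, Mir384 and Mir218-2 rows were listed at 0 in both genotypes.

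Several loci beside other microRNAs were lower too. XLOC_035115, 1144 bp from a row named Brsk2 and Mir3104, had 2.05 and 0.101 FPKM, and XLOC_027181, 2490 bp from Mir5120, had 2.27 and 0.156 FPKM. XLOC_035009 and XLOC_035010, in the interval of Mir1839, had 15.7 and 1.97 FPKM and 3.36 and 0.593 FPKM. XLOC_016428 in the interval of Mir3083 and XLOC_005066 beside Mir3063 had log2 ratios of -2.32 and -2.08. Smaller differences were found at other loci. XLOC_021096, 993 bp from Mir130a, had 5.67 FPKM in Hb9 control against 2.62 FPKM in A2 SMA MNs. XLOC_013074 lay 1575 bp from Srebf2, a regulator of cholesterol synthesis that hosts Mir33, and had 6.42 and 3.48 FPKM, while Srebf2 had 170 and 103 FPKM. Near Mir204, which lies within the ion channel gene Trpm3, 4 loci had 0.587 to 1.15 FPKM in Hb9 control against 1.12 to 1.63 FPKM in A2 SMA MNs. All 4 were higher in A2 SMA MNs, by log2 ratios of 0.19 to 1.06, and only XLOC_018585 passed 2-fold. The other locus at least 2-fold higher was XLOC_038756, in the interval of a row named Glce and Mir5133, with 1.16 and 4.33 FPKM and a log2 ratio of 1.89, beside 21.5 and 19.4 FPKM for that row. Its status was FAIL, which marks a row that Cuffdiff could not test.

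Most of the 793 loci were of low level. Hb9 control MNs had a median of 1.82 FPKM over the loci, with quartiles of 0.954 and 3.35, and A2 SMA MNs a median of 1.35 FPKM, with quartiles of 0.730 and 2.63. The 15627 named loci at 1 FPKM or more had medians of 16.6 and 11.9 FPKM. Of the unnamed loci, 160 reached 5 FPKM and 73 reached 10 FPKM in the higher genotype. At the lower limit, the last loci kept had 1.00004, 1.00184 and 1.00232 FPKM in the higher genotype and the first left out had 0.997167, 0.996688 and 0.991404 FPKM. At the length limit, the shortest loci kept spanned 1000, 1001 and 1001 bp and the longest left out 999, 997 and 995 bp. The locus of 999 bp, XLOC_013404, had 17.3 FPKM in Hb9 control against 3.22 FPKM in A2 SMA MNs.

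**Figure D1:**
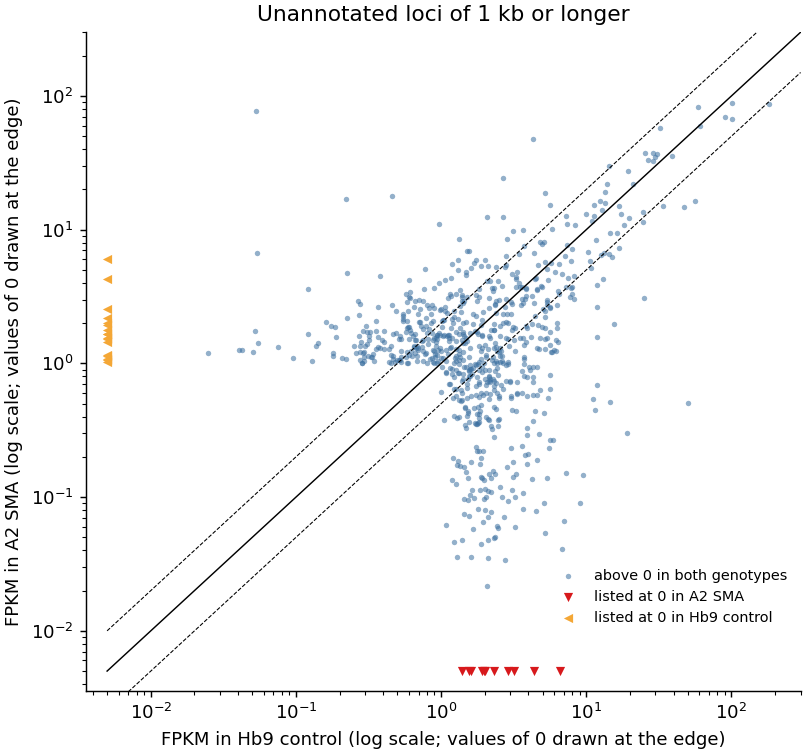
FPKM of each of the 793 unannotated loci in Hb9 control MNs (horizontal) and A2 SMA MNs (vertical), both on log scales, with 1 point per locus. The solid line marks equal values and the dashed lines 2-fold differences, and the 17 loci listed at 0 in Hb9 control MNs and the 11 listed at 0 in A2 SMA MNs are drawn at the edges. Most points lie between 1 and 10 FPKM in the higher genotype and many lie outside the dashed lines.

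The 10 unnamed loci of highest level ranged from near equal to extreme differences between the genotypes. XLOC_007328 (chr12:55993327-56115335) had the highest value of all, 182 FPKM in Hb9 control against 87.0 FPKM in A2 SMA MNs. XLOC_016407 (chr17:22855273-22876719) had 101 and 88.3 FPKM. XLOC_012700 (chr15:103075342-103077130), 611 bp from Hnrnpa1, which encodes an RNA-binding splicing regulator, had 90.4 and 69.9 FPKM. Each of these was lower in A2 SMA MNs, but by a log2 ratio of no more than 1.06 in size. XLOC_016352 had 59.4 and 82.8 FPKM, XLOC_002012 had 60.8 and 59.7 FPKM, and XLOC_035135 had 32.1 and 57.3 FPKM. XLOC_018566, in the interval of the fatty acid desaturase gene Fads1, had 101 and 66.8 FPKM with the status FAIL. XLOC_013479, 4265 bp from the sodium channel gene Scn8a, had 56.1 and 16.5 FPKM, and Scn8a had 5.48 and 2.37 FPKM. These 8 loci were among the 10 of highest level. The other two, XLOC_036627 and XLOC_022356, also had extreme ratios and are described with those.

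A ratio between genotypes could be formed for the 765 loci above 0 FPKM in both, and its log2 (A2 SMA over Hb9 control) had a median of -0.32 with quartiles of -1.71 and 0.99. Of these loci 426 (55.7%) were lower and 339 were higher in A2 SMA MNs. At least 2-fold differences were found at 473 loci (61.8%), with 283 (37%) lower and 190 (24.8%) higher in A2 SMA MNs. Among named loci at 1 FPKM or more, 22.7% were at least 2-fold lower and 6.93% at least 2-fold higher, and the median log2 ratio was -0.30. At least 4-fold differences were found at 164 unnamed loci (21.4%) that were lower and 80 (10.5%) that were higher, beside 9.04% and 1.85% of named loci. Relative to the median of named loci the lower and higher sides were even at 2-fold, with 239 unnamed loci at least 2-fold lower and 238 at least 2-fold higher once ratios were centred on it, but not at 4-fold, where 135 (17.6%) were lower and 109 (14.2%) higher. The shares were also taken with a limit in both genotypes, an alternative whose values for named loci were added after the data were seen. Of the 326 loci with at least 1 FPKM in both genotypes, 21.5% were at least 2-fold lower and 15% at least 2-fold higher, beside 17.9% and 4.97% of named loci under the same limit. At 4-fold the shares were 3.68% and 2.76%, beside 5.31% and 0.867% of named loci.

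The shares were also set beside those of named loci of like level. Among named loci at 1 to 5 FPKM, 30.7% were at least 2-fold lower and 13.8% at least 2-fold higher in A2 SMA MNs, whereas 36.7% and 26.4% of the unnamed loci at this level were. At 5 FPKM or more, 20.2% of named loci were at least 2-fold lower and 4.79% higher, and of the 158 unnamed loci with a ratio 38% were lower and 19% higher. The share past 2-fold was larger for unnamed than for named loci in both level ranges and both directions. Of unnamed loci under 1 kb, 19.5% were at least 2-fold lower and 17.3% at least 2-fold higher, in both cases a smaller share than among the longer unnamed loci.

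**Figure D2:**
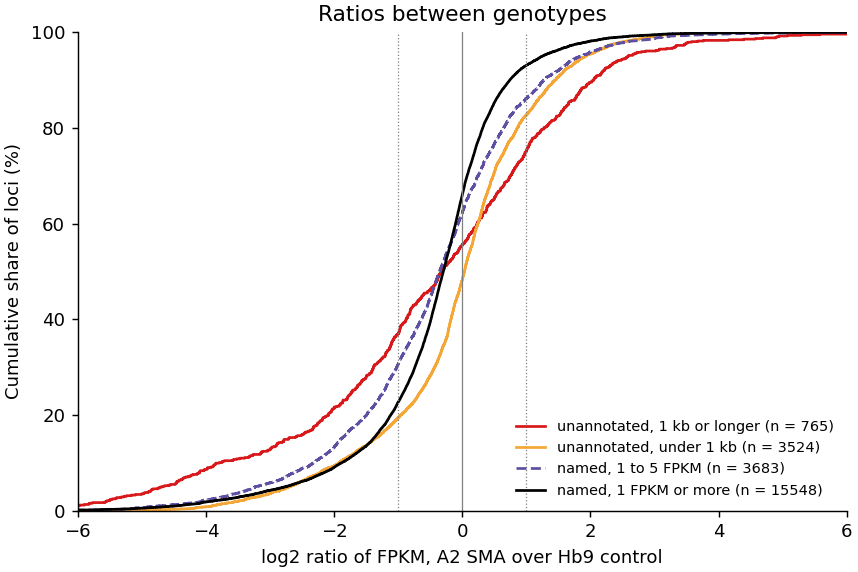
Cumulative share of loci (vertical, in %) by log2 ratio of FPKM in A2 SMA over Hb9 control MNs (horizontal) for the 765 unannotated loci of 1 kb or longer, 3524 unannotated loci under 1 kb, 3683 named loci at 1 to 5 FPKM and 15548 named loci at 1 FPKM or more. Dotted lines mark 2-fold differences. The curve of the loci of 1 kb or longer is the flattest and crosses 0 at 55.7%.

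The direction of the difference varied with the distance of a locus from the nearest named locus. The 159 loci that overlapped a named locus had a median log2 ratio of -1.07, and 78 of the 153 with a ratio (51.0%) were at least 2-fold lower in A2 SMA MNs. The 125 loci at a gap under 1 kb had a median of -0.99, with 49.2% at least 2-fold lower and 10.7% at least 2-fold higher. At 1 to 10 kb the median of 253 loci was -0.40. At 10 to 100 kb it was 0.76 for 213 loci, with 41.6% at least 2-fold higher and 22.3% at least 2-fold lower. The 42 loci more than 100 kb from any named locus had a median of 0.96, and 27 of the 36 with a ratio (75%) were higher in A2 SMA MNs. Loci close to genes were thus mostly lower, and loci far from genes mostly higher, in A2 SMA MNs.

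Named loci did not show this order. Grouped by the gap to the nearest other named locus, their medians ran from -0.43 to -0.22, and 36.8% of those at 10 to 100 kb and 31.7% of those over 100 kb were higher in A2 SMA MNs. Unnamed loci under 1 kb showed a weaker form of it, with medians of -0.46 at a gap under 1 kb, -0.15 at 1 to 10 kb, 0.17 at 10 to 100 kb and 0.09 over 100 kb. For the shorter loci level rose with distance too, with medians of the higher FPKM value of 3.34, 3.61, 111 and 597. At the loci of 1 kb or longer level did not follow the order, since the median of the higher FPKM value was 2.42, 2.56, 2.044, 2.34 and 2.47 in the 5 distance classes. With 1 locus for each set of shared coordinates, an alternative added after the data were seen, the 5 medians were -0.92, -0.99, -0.42, 0.76 and 0.93. Over loci with at least 1 FPKM in both genotypes they were smaller, at -0.52, -0.72, -0.25, 0.50 and 0.77. Relative to the median of named loci, the medians over all the loci with a ratio were -0.77, -0.69, -0.10, 1.05 and 1.25.

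**Figure D3:**
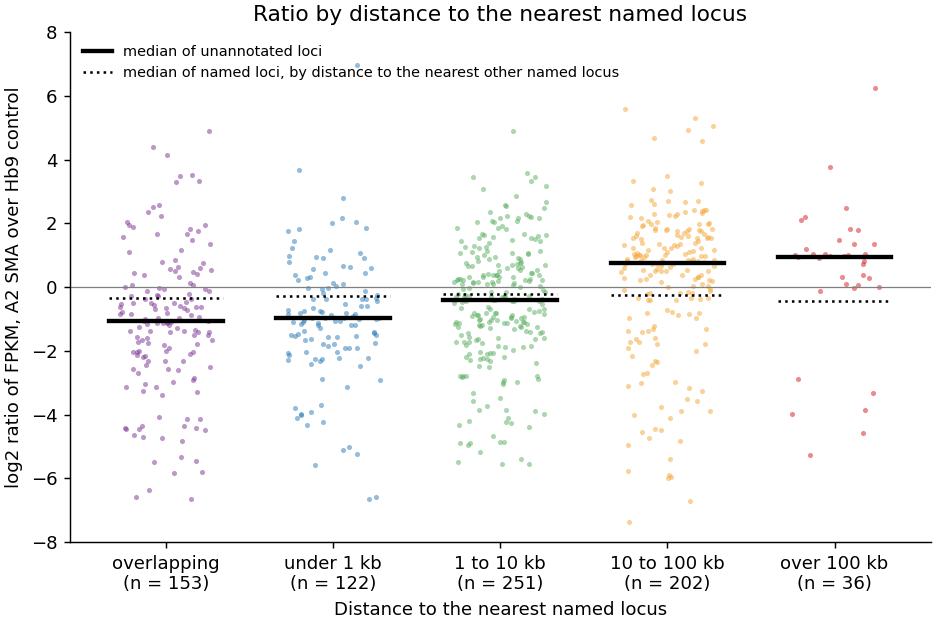
Log2 ratio of FPKM in A2 SMA over Hb9 control MNs (vertical) of each unannotated locus, by its distance to the nearest named locus (horizontal), with n as the number of loci above 0 in both genotypes. Solid bars are medians of unannotated loci and dotted bars medians of named loci by distance to the nearest other named locus. The solid bars pass from -1.07 for overlapping loci to 0.96 over 100 kb, and the dotted bars stay below 0.

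The loci were next compared with their nearest named locus, a value that did not enter their choice. A ratio was available for both in 627 pairs, and in 456 of them (72.7%) the locus and its neighbour differed in the same direction. Across these pairs, which share libraries and in part neighbours, Pearson's r of the log2 ratios was 0.656 and Spearman's rho was 0.628. For named loci and their nearest other named locus the share was 62.5% of 11987 pairs and Pearson's r was 0.313. The unnamed locus had the more extreme ratio in 427 of the 627 pairs (68.1%), and for named loci this share was 47.7%. The FPKM limit was set on the unnamed locus and not on its neighbour. Both measures fell off with distance, from 83.3% and 0.766 for overlapping loci through 78.9% and 0.680 under 1 kb and 69.2% and 0.657 at 1 to 10 kb to 63.5% and 0.543 at 10 to 100 kb. Over 100 kb only 17 pairs had ratios, with 64.7% and 0.609, and with neighbours required to reach 1 FPKM the 83 pairs over 100 kb had 44.6% and 0.121.

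The neighbours of lower and of higher loci were then counted apart. Of the 247 loci at least 2-fold lower in A2 SMA MNs with a ratio for the neighbour, 228 (92.3%) had a neighbour that was also lower, by at least 2-fold in 135. Of the 142 loci at least 2-fold higher, 95 (66.9%) had a neighbour that was also higher, by at least 2-fold in 44, and 47 had a neighbour that was lower. Of named loci at 1 FPKM or more with a ratio, 66.0% were lower, but the neighbours were taken from named loci of any level. Named loci showed the same asymmetry, since 78.4% of those at least 2-fold lower had a lower nearest other named locus and 56.4% of those at least 2-fold higher had a higher one. The neighbour passed 2-fold in the same direction at 39.3% of lower and 25.3% of higher named loci, and at 54.7% and 31% of the unnamed loci.

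**Figure D4:**
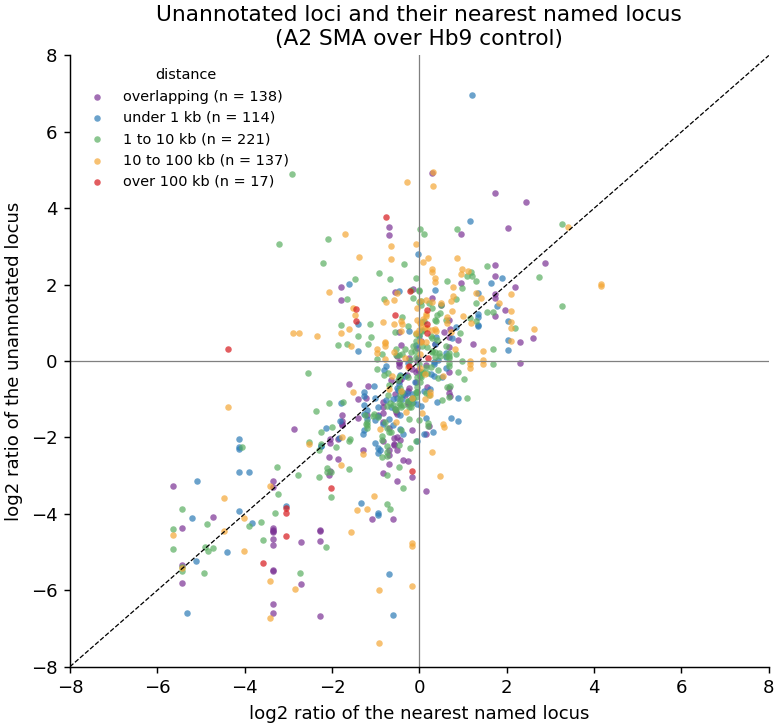
Log2 ratio of each unannotated locus (vertical) against that of its nearest named locus (horizontal), both for A2 SMA over Hb9 control MNs, for 627 pairs coloured by distance, with equal ratios on the dashed line. Points in the lower left and upper right quadrants, 456 of 627, differ in the same direction. The upper left quadrant holds loci that were higher beside a named locus that was lower.

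A set of loci went against the nearest expressed gene. When the neighbour had to reach 1 FPKM, 229 loci were past 2-fold together with their neighbour, and in 33 of these pairs the directions were opposite. In 31 of the 33 the unnamed locus was higher and the gene lower in A2 SMA MNs. These were 31 of the 185 loci at least 2-fold higher with such a neighbour. Of the 282 loci at least 2-fold lower with such a neighbour, 2 had a gene at least 2-fold higher. Of named loci at 1 FPKM or more, 22.7% were at least 2-fold lower and 6.93% at least 2-fold higher. XLOC_024195 (chr3:75451363-75452912), 3924 bp from Serpini1, which encodes the neuronal protease inhibitor neuroserpin, had 2.69 FPKM in Hb9 control against 24.4 FPKM in A2 SMA MNs, while Serpini1 had 17.7 and 4.12 FPKM. XLOC_016307 (chr17:86555085-86558606), 8518 bp from the protein kinase C gene Prkce, had 0.121 and 3.60 FPKM, while Prkce had 12.8 and 1.69 FPKM. XLOC_009945 (chr13:81775057-81783290), 2889 bp from the adhesion receptor gene Gpr98, had 3.15 and 9.73 FPKM, while Gpr98 had 57.8 and 9.20 FPKM. In 25 of the 31 pairs the gap was over 10 kb, as for the 4 loci 515723 bp from Rbfox1, a neuronal splicing regulator with 4.11 and 0.120 FPKM. Both loci of the opposite kind lay far from Cyp7b1, at 378737 and 380105 bp. These loci other than XLOC_024195 were named after their values were seen.

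The 10 lowest log2 ratios among loci that reached 5 FPKM ran from -7.37 to -5.28. The lowest belonged to XLOC_006416, with 6.80 FPKM in Hb9 control against 0.0411 FPKM in A2 SMA MNs, and XLOC_005005 in the same interval (chr11:88057701-88072646) had 9.44 and 0.147 FPKM. The nearest named gene, Mrps23 of the mitochondrial ribosome, lay 32.7 kb away and had 186 and 97.7 FPKM. XLOC_036627 (chr8:131258079-131285299) was the most abundant of these loci, with 50.5 FPKM in Hb9 control against 0.502 FPKM in A2 SMA MNs. Its neighbour at 978 bp, the integrin subunit gene Itgb1, had 198 and 130 FPKM. XLOC_004093 (chr11:4647221-4648573), 439 bp from the spliceosome gene Zmat5, had 7.26 and 0.152 FPKM beside 40.5 and 25.1 FPKM for Zmat5. At these 4 loci the neighbour was lower too, but by less than 2-fold.

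For the other six loci of this group the nearest named row, at distances of 0 bp to 124.6 kb, was itself at least 4-fold lower in A2 SMA MNs. XLOC_038141 (chr9:54912788-54931036), 16.2 kb from the nicotinic receptor subunit gene Chrnb4, had 7.01 and 0.0667 FPKM. XLOC_029464 shared its interval (chr5:115808709-115905707) with Msi1, which encodes an RNA-binding protein of neural progenitors, and had 9.07 and 0.0898 FPKM beside 191 and 39.6 FPKM for that row. XLOC_029315, 59 bp from the homeobox gene Nkx1-1, had 5.18 and 0.0540 FPKM, and Nkx1-1 had 13.6 and 0.337 FPKM. XLOC_008683 (chr12:111425624-111428497) had 19.05 FPKM in Hb9 control against 0.303 FPKM in A2 SMA MNs. Its nearest row, named Dio3os and Mir1247, lay 85.1 kb away and had 1.07 and 0.148 FPKM, and Dio3, which encodes a thyroid hormone deiodinase, had 1.23 and 0.876 FPKM. XLOC_023477, in the interval of the predicted gene Gm10710, had 5.11 and 0.0906 FPKM. XLOC_032471, 124.6 kb from Rgma, which encodes a repulsive axon guidance molecule, had 5.38 and 0.139 FPKM, and Rgma had 215 and 18.1 FPKM.

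Among loci that reached 5 FPKM, the 10 highest log2 ratios ran from 2.59 to 10.50. The highest belonged to XLOC_022356, with 0.0532 FPKM in Hb9 control against 77.1 FPKM in A2 SMA MNs and the status FAIL. It was the only row of the table on a sequence named 20, from position 56 to 28137, and had no named neighbour. The mouse genome has no chromosome of that name, what the sequence holds is not given in the sources used here, and its identity was not tested. XLOC_007081 (chr11:88829133-88830832) lay 733 bp from a row named 2210409E12Rik and Coil, the latter encoding the Cajal body protein coilin, and had 0.0538 and 6.68 FPKM beside 33.5 and 77.1 FPKM for that row. XLOC_023283 (chr3:35517580-35522190) had 0.221 and 17.0 FPKM, and XLOC_023284 (chr3:35527730-35536001) had 0.460 and 18.0 FPKM. XLOC_024106 and XLOC_024107, in the interval of XLOC_023283, were listed at 0 in Hb9 control MNs and had 4.30 and 6.03 FPKM in A2 SMA MNs. These 4 loci lay 98.3 to 112 kb from the nearest named row and were all higher in A2 SMA MNs.

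The rest of this group lay nearer to genes. XLOC_000125 (chr1:37157316-37199650), 11.0 kb from Vwa3b, had 0.973 and 11.0 FPKM, and Vwa3b had 0.116 and 1.21 FPKM. XLOC_027215, in the interval of Ipp (chr4:116180154-116213570), had 4.30 and 48.1 FPKM, while Ipp had 14.4 and 58.9 FPKM. XLOC_003228, 23.3 kb from Dse, which encodes an enzyme of dermatan sulfate synthesis, had 0.776 and 5.08 FPKM beside 16.4 and 29.9 FPKM for Dse. At these 3 loci the neighbour was higher in A2 SMA MNs as well. XLOC_009911 (chr13:73481804-73484926), 12.2 kb from the mitochondrial ribosome gene Mrpl36, had 1.32 and 8.52 FPKM, while Mrpl36 was near equal at 34.2 and 39.1 FPKM. XLOC_027631 (chr5:74337620-74340593) had 2.07 and 12.4 FPKM, with the nearest named row, 1700094C10Rik, at 53.9 kb and near 0 in both genotypes. XLOC_024195 beside Serpini1 completes the group.

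No ratio was formed for the loci listed at 0. Of the 17 listed at 0 in Hb9 control MNs, those of highest level in A2 SMA MNs after XLOC_024107 and XLOC_024106 were XLOC_015344 (2.56 FPKM), XLOC_013438 (2.20 FPKM) and XLOC_015280 (2.01 FPKM). Of the 11 listed at 0 in A2 SMA MNs, those of highest level in Hb9 control MNs were XLOC_023476 in the interval of Gm10710 (6.63 FPKM), XLOC_014253 (4.37 FPKM), XLOC_024116 in the interval of Gm15450 (3.17 FPKM), XLOC_037155 (2.88 FPKM) and XLOC_037774 (2.32 FPKM). The reads behind these values are unknown, so a listed 0 is not shown to be absence.

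Many of the loci were pieces of the same region. The 793 loci held 620 distinct sets of coordinates, and 250 loci shared theirs with another of the 793. All 159 loci that overlapped a named locus had exactly the coordinates of a named row, so the interval is that of a group of merged transcripts and not the extent of a single transcript. Joined across gaps of up to 10 kb, the loci formed 533 runs, of which 398 held 1 locus and 135 held 2 or more. Within 115 of the 135 runs every locus was on the same side, lower in A2 SMA MNs in 66 runs and higher in 49. Most of these runs held 2 loci, and 77 intervals were held by more than 1 locus. How many runs would fall on 1 side by their size alone was not tested.

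The largest run held 15 loci in 1 interval, that of the predicted gene Gm15450 (chr3:37567733-37747198). All 15 were lower in A2 SMA MNs, with 1.81 to 14.6 FPKM in Hb9 control (median 2.11) against 0 to 0.554 FPKM in A2 SMA MNs (median 0.0812). The Gm15450 row had 31.5 and 3.10 FPKM. The next run, 12 loci at and beside C430002E04Rik (chr3:41264769-41327257), had medians of 1.20 and 1.27 FPKM, with 6 loci higher and 6 lower. XLOC_023331 in this run had 7.98 and 7.23 FPKM. The 9 loci of a run 17.3 to 43.7 kb from CT010465.1 (chr13:7137099-7175120) were without exception higher in A2 SMA MNs, at medians of 0.548 FPKM in Hb9 control against 2.003 FPKM in A2 SMA MNs.

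The 16 runs of 5 or more loci held 116 loci. Lower in A2 SMA MNs throughout were the 8 loci at and beside Gm10710 (medians 2.45 and 0.0593 FPKM), 7 near the small GTPase gene Rab30 (3.34 and 0.599 FPKM) and 5 near Mex3a, which encodes an RNA-binding protein (1.82 and 0.797 FPKM). Also lower throughout were 5 near the chromatin remodeller gene Chd2 (17.4 and 12.1 FPKM), 5 near AI662270 (3.22 and 1.04 FPKM) and 5 near D930007P13Rik and Smug1 (2.68 and 0.235 FPKM). Higher throughout were the 6 loci near Pglyrp1 (0.584 and 4.01 FPKM), 8 near Adrb3 and Eif4ebp1 (0.766 and 2.17 FPKM), 6 in the region of Rbfox1 whose nearest row is a 7SK copy (0.650 and 2.08 FPKM) and 7 near Zfp715 (1.22 and 2.63 FPKM). Near the zinc finger gene Sall1, 4 of 5 loci were lower. Loci of a run lie side by side or share coordinates, so they were not counted as independent of each other, and whether they share reads or transcripts was not tested.

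**Figure D5:**
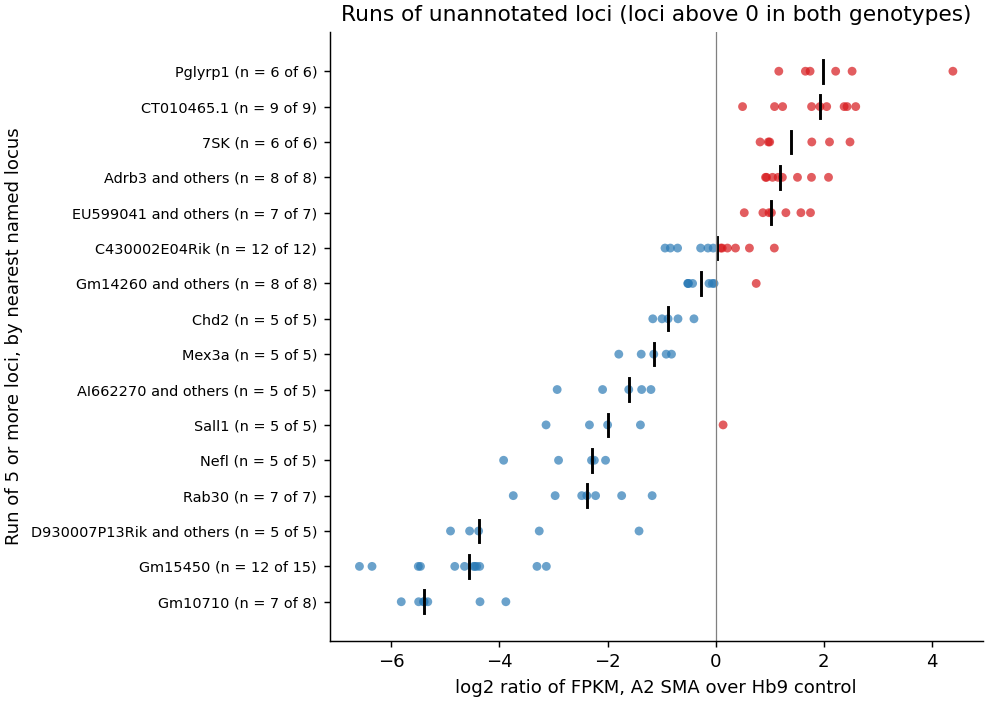
Log2 ratio of FPKM in A2 SMA over Hb9 control MNs (horizontal) of the loci in the 16 runs of 5 or more, 1 row per run, named by a nearest named locus, with black bars at run medians and points blue where lower and red where higher in A2 SMA MNs. Loci listed at 0 in a genotype are left out. In 13 of the 16 runs every point lies on the same side of 0, and the runs at C430002E04Rik, Gm14260 and Sall1 hold points on both sides.

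The lists of cell type genes had few of these loci as neighbours. Of named loci at 1 FPKM or more, 22.7% were at least 2-fold lower in A2 SMA MNs. Of the pan-neuronal list, whose 33 loci included 32 at least 2-fold lower in A2 SMA MNs, 6 unnamed loci were neighbours and all 6 were at least 2-fold lower, beside 37% of all unnamed loci with a ratio and 49.2% of those under 1 kb from a named locus. Of these, 5 shared an interval 120 bp from Nefl (chr14:68743024-68749374), which encodes the neurofilament light chain. They had 1.57 to 4.32 FPKM in Hb9 control against 0.104 to 0.880 FPKM in A2 SMA MNs, beside 297 and 17.0 FPKM for Nefl. The sixth, XLOC_022347, lay 5016 bp from Stmn3, which encodes a neuronal tubulin-binding protein, and had 1.72 and 0.359 FPKM. This locus is named in addition to the 3 neighbours per list that the rule for naming loci allows.

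A neighbour of an MN gene was lower as well. XLOC_029402, 560 bp from the ventral progenitor gene Nkx6-1, had 3.25 and 0.101 FPKM, and Nkx6-1 had 158 and 7.46 FPKM. Of the 20 MN list loci at 1 FPKM or more, 18 were at least 2-fold lower. At least 2-fold lower were 37% of all unnamed loci with a ratio and 22.7% of named loci at 1 FPKM or more. Of the 5 neighbours of neural progenitor genes, 3 were in the interval of Msi1, and all 5 were at least 2-fold lower, as were 40 of the 46 loci of that list. Among these, XLOC_027171, 3023 bp from the neural factor gene Pou3f2, had 2.91 and 0.0928 FPKM beside 55.1 and 1.93 FPKM for Pou3f2.

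The naive pluripotency list had 2 neighbours, both at least 2-fold higher in A2 SMA MNs, as were 32 of its 40 loci at 1 FPKM or more. At least 2-fold higher were 24.8% of all unnamed loci with a ratio and 6.93% of named loci at 1 FPKM or more. XLOC_014679, in the interval of Dppa2 (chr16:48303934-48320911), had 0.0749 FPKM in Hb9 control against 1.33 FPKM in A2 SMA MNs, and Dppa2 had 2.52 and 13.6 FPKM. XLOC_038781 (chr9:78216221-78221212), 236 bp from Dppa5a, had 0.160 and 2.041 FPKM, and Dppa5a had 23.3 and 52.2 FPKM. Both genes are markers of pluripotent cells. Of the Hox list only Hoxb9 had a neighbour, XLOC_007085 in its interval, with 0.590 and 1.01 FPKM. Of the 19 Hox loci at 1 FPKM or more, 15 were at least 2-fold lower, beside 22.7% of named loci, and 0 at least 2-fold higher. None of the loci had a gene of the glia, endoderm and mesoderm, feeder fibroblast or noncoding RNA lists as its nearest named locus. The microRNA list was nearest to 16 loci, of which 9 were at least 2-fold lower and 2 at least 2-fold higher, beside 37% and 24.8% of all unnamed loci with a ratio. Of its own 130 loci at 1 FPKM or more, 39 were at least 2-fold lower and 9 at least 2-fold higher. Of all named loci at 1 FPKM or more, 22.7% and 6.93% were. Rows that join a microRNA symbol with another gene count here, such as that of Igf2bp1 and Mir3063 (206 and 196 FPKM).

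Names for the loci were sought in a newer annotation by gene order alone. Between the named genes that flank a locus, GENCODE M21 (GRCm38) lists genes that the table lacks, and no coordinates were carried over between the builds. For 622 of 631 loci outside named loci the flanking genes kept their order, and for 352 of these at least 1 long newer gene lies between them, exactly 1 for 166. Such a gene is a candidate name and not an identification. For XLOC_009911 it was Eprn (ephemeron), a noncoding RNA gene of early pluripotent cells. For XLOC_006416 and XLOC_005005 it was Gm38534.

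Genes named Platr, for pluripotency associated transcript, were looked for after these values were seen. Of the 30 in GENCODE M21, the table already names 12, and 4 of the others lie between the flanking genes of 6 of the loci in 4 runs, in each case with other newer genes. All 6 loci were at least 2-fold higher in A2 SMA MNs, beside 24.8% of all unnamed loci with a ratio. XLOC_024195 had Platr10 among its candidates. XLOC_038560 (chr9:118287435-118315359), 71966 bp from Eomes, had Platr11 among its candidates and 5.21 FPKM in Hb9 control against 18.9 FPKM in A2 SMA MNs, and XLOC_038849 in the same interval had 0.529 and 1.23 FPKM. XLOC_002216 and XLOC_002217, between Kif14 and Zfp281, had Platr23 among theirs and 0.749 and 2.93 FPKM and 0.897 and 3.64 FPKM. XLOC_001404, with Platr5 among its candidates, had 0.180 and 1.19 FPKM.

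The loci were unevenly spread over the chromosomes. Chromosome 7 held 86, chromosome 3 held 69 and chromosome 5 held 64, while chromosome 4 held 21. Per 100 named loci at 1 FPKM or more this was 7.21, 9.41, 6.51 and 1.90. Counted as runs, with loci within 10 kb of each other taken as 1, it was 3.94, 3.82, 5.29 and 1.54, so chromosome 3 no longer stood above chromosomes 7 and 5. Chromosomes 15 and 12 had 8.60 and 7.39 loci per 100 named loci, and 5.96 and 6.10 counted as runs, above chromosome 5. Among chromosomes with at least 15 loci, median log2 ratios were highest on chromosomes 16 (1.39, 24 loci) and 13 (1.09, 39 loci) and lowest on the X chromosome (-1.17, 17 loci) and chromosome 12 (-1.06, 40 loci), where named loci had medians of -0.26, -0.33, -0.21 and -0.38. Of the 39 loci on chromosome 13, 9 belong to the run near CT010465.1.

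Interval length and status showed less. The median interval was 3924 bp (quartiles 1605 and 15889), against 30527 bp for named loci. Median log2 ratios were -0.43 for 262 loci of 1 to 2 kb, 0.05 for 267 loci of 2 to 10 kb and -0.48 for 264 loci of 10 kb and over. After Slit3, the longest intervals were those of Rad51l1, a homologous recombination gene, and Gm16736. At Rad51l1, XLOC_008630 had 1.82 and 0.222 FPKM and XLOC_008631 had 1.54 and 0.440 FPKM. At Gm16736, XLOC_016481 had 1.22 and 0.556 FPKM and XLOC_016482 had 1.53 and 0.769 FPKM, each with the status FAIL. The Gm16736 row was listed at 0 in both genotypes, and BC048355, also overlapped, had 30.5 and 41.6 FPKM. The farthest loci from any named row, XLOC_002370 at 807 kb (1.52 and 6.91 FPKM) and XLOC_007306 at 640.4 kb (3.44 and 6.61 FPKM), were both higher in A2 SMA MNs. The other three of the 5 farthest were XLOC_023249 at 387 kb (0.586 and 2.07 FPKM) and XLOC_015280 and XLOC_016477 near Mut, listed at 0 in Hb9 control MNs with 2.01 and 1.77 FPKM in A2 SMA MNs. The status was FAIL for 31 loci (3.91%), against 13.9% of named loci, and 26 of the 31 overlapped a named locus.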

How the data were processed

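Libraries were made from total RNA of FACS-purified cells with the TruSeq RNA Sample Prep Kit. As the labels and methods state, the authors trimmed reads with cutadapt, checked them with FastQC (0.10.1), mapped them with TopHat2 (2.04) to mouse build NCBI m37 with Ensembl annotation, assembled transcripts with Cufflinks and compared genotypes with Cuffdiff. The deposited table gives 1 FPKM value per genotype over its 3 samples. Its columns of fold change, test statistic, p and q hold the authors' own comparison and were not used, whereas the status column was used as a label. The number of reads behind a value is unknown.

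Start positions in the table count from 0, since end minus start matched the RefSeq length for 172 of 508 microRNA rows and end minus start plus 1 for 0, and are given here from 1. Log2 ratios of A2 SMA over Hb9 control were formed without a pseudocount where both values were above 0. The nearest named locus was the row with a gene name at the smallest gap between edges. Python 3.11.15, numpy 2.4.6, pandas 2.3.3, scipy 1.17.1 and matplotlib 3.10.9 were used, and the search for neighbours was tested on simulated data.

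The loci and gene lists were chosen with earlier results of these data known. Loci named in the text are the 10 highest and 10 lowest ratios at 5 FPKM or more, the 10 of highest level, the 5 of highest level among those listed at 0 in each genotype, up to 3 neighbours per gene list within 100 kb, the 5 longest and 5 farthest, the 3 largest runs and the loci at the limits, and others where the text says so. The neighbours of 1 gene on these lists are not reported here. Alternatives varied the level and length limits, pseudocount, centring, status, neighbour and weighting of runs.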

Additional observations from a re-analysis of the deposited data

How the results depend on the processing

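Of the summary results, 37 values under the alternatives stayed close to the reported value (counts within 1.5-fold, medians and r within 0.1, shares within their 95% exact binomial interval, median FPKM within the quartiles of the loci), 29 did not and 1 changed sign. That 1 is the median log2 ratio, which is -0.32 as reported and 0.0080 without a length limit, where 3733 shorter loci enter. It was -0.023 when centred on named genes, -0.19 with a pseudocount of 1 FPKM, -0.18 without the FPKM limit, -0.10 with 1 FPKM in both genotypes and -0.57 at 5 FPKM or more.

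Counts moved as follows, and the cause was not tested. At least 2-fold higher and lower were 49 and 70 loci with 1 FPKM in both genotypes (326 loci), 30 and 60 at 5 FPKM or more, and 798 and 969 without a length limit. A pseudocount of 1 FPKM left 100 loci at least 2-fold higher, and a limit of 2 kb left 183 lower. At least 4-fold higher and lower were 14 and 35 with a pseudocount of 1 FPKM, 9 and 12 with 1 FPKM in both, 15 and 33 at 5 FPKM or more, and 240 and 493 without a length limit. Median FPKM in Hb9 control and A2 SMA MNs was 6.59 and 5.8 at 5 FPKM or more, 5.22 and 4.96 without a length limit, and 2.87 and 2.78 with 1 FPKM in both. With the latter limit 21.4% of loci at least 4-fold lower became 3.68%, and 10.5% at least 4-fold higher became 2.76%. The share of pairs in the same direction was 68.2% with 1 locus per neighbour and 78.6% at 5 FPKM or more, and r was 0.54 at 10 to 100 kb.

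By distance, the alternatives added after the data were seen kept the sign of all 5 medians. No paired analysis was possible because the table holds 1 value per genotype, and for the same reason no sample was left out in turn. The number of reads behind a value is unknown, so counting error at loci near 1 FPKM is not known either.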
